A study of Homo sapiens with 4 samples.

Results

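The genes described here are 10 members of the Hippo pathway: YAP1 and WWTR1, which encode the coactivators YAP and TAZ, TEAD1, TEAD3 and TEAD4, which encode the DNA-binding partners of both, LATS2, VGLL4 and AMOTL2, which encode regulators, and the target genes CYR61 and CTGF. They were chosen by name, and their members in the data were all FOXK2 ChIP-seq peaks whose assigned gene carried a name on that list. This rule found 23 of 12471 peaks in replicate 1, for 9 of the 10 genes, and 44 of 27281 peaks in replicate 2, for all 10 genes.

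FOXK2 is a forkhead transcription factor, and the study mapped its binding in OVCAR5, an established ovarian cancer cell line that the labels give as high grade serous. Chromatin was crosslinked with paraformaldehyde, sonicated and precipitated with a FOXK2 antibody in 2 biological replicates, and the input libraries were not analysed here. All samples were of a single cell line, and the labels name no treatment or genotype, so the data hold 1 condition and allow no comparison of treatments or genotypes. No level of RNA was measured here, and the replicates show the spread between preparations of that line only.

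The Hippo pathway restrains growth through a kinase cascade in which LATS kinases phosphorylate YAP and TAZ and so keep them out of the nucleus. Unphosphorylated YAP and TAZ enter the nucleus, bind TEAD proteins at a short core written CATTCC on one strand and GGAATG on the other, and activate genes such as CYR61 and CTGF. TEAD sites often lie near sites of AP-1, the FOS and JUN dimer, while forkhead factors such as FOXK2 recognise a core written TGTTTAC or, on the other strand, GTAAACA.

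The sequences below show what lay under the highest-ranked FOXK2 peak that both replicates held for each gene, so that the letters can be read beside the scores given later. Each is the stretch common to both replicates on the forward strand of hg38, 5′ to 3′, read from the reference genome, except that 5 bases of UTR at the start of the CTGF stretch were left out. Capitals mark TGTTTAC, the TEAD core CATTCC, or the AP-1 site TGACTCA or TGAGTCA, on either strand, and a stretch without capitals holds none of these letters. The WWTR1 stretch was chr3:149607675-149607884, in intron 3, and that of TEAD1 was chr11:12802761-12802970, in intron 3. The TEAD3 stretch was chr6:35486204-35486410, in intron 2, that of TEAD4 was chr12:2958899-2959002, at the promoter, and that of LATS2 was chr13:21033965-21034174, in intron 2. The best VGLL4 peak lay in a 5′ UTR, and the next shared VGLL4 peak is shown instead, chr3:11641464-11641616 in intron 2. The CYR61 stretch was chr1:85584228-85584422, past the gene's coding part, and that of CTGF was chr6:131895156-131895360, at the end of the gene ENPP1.
WWTR1: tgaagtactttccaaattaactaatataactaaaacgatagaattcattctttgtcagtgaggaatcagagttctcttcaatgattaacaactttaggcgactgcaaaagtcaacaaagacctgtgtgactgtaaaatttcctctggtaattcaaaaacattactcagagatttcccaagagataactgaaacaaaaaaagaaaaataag
TEAD1: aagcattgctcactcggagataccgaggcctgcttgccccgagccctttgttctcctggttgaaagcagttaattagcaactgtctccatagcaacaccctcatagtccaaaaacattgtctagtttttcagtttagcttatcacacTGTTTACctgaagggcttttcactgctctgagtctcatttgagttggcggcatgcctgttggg
TEAD3: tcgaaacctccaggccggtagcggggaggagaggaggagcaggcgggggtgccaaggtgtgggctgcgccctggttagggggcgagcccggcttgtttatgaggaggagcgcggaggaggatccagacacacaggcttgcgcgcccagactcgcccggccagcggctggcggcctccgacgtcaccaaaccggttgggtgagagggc
TEAD4: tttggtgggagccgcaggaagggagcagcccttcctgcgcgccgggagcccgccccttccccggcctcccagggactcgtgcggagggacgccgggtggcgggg
LATS2: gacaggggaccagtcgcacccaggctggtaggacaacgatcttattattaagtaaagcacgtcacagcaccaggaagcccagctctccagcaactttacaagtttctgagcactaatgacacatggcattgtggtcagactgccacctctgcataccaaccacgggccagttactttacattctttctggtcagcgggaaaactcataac
VGLL4: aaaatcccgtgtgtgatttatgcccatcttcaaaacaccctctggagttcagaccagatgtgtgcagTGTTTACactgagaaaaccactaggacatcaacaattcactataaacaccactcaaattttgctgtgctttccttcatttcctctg
CYR61: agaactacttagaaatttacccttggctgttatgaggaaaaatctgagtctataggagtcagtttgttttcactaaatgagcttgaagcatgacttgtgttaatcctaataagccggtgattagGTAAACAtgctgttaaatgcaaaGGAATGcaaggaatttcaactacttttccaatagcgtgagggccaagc
CTGF: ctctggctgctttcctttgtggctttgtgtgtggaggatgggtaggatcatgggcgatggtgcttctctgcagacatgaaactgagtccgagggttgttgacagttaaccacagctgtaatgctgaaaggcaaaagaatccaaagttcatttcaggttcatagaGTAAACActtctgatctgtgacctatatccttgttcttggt

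The stretches of TEAD1, VGLL4, CYR61 and CTGF each held a forkhead core, and the CYR61 stretch also held a TEAD core. Those of WWTR1, TEAD3, TEAD4 and LATS2 held none of the 3 motifs. The best VGLL4 peak, whose letters are not shown, held none of them within 100 bp of its centre in either replicate.

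Another 3 stretches are shown because they carry TEAD or AP-1 letters at the target genes. The first is the shared peak upstream of the CYR61 start, chr1:85580099-85580308, and the next is the shared peak upstream of the CTGF start, chr6:131954805-131954962, both on the forward strand. The last is the CTGF promoter from RefSeq (GRCh38.p14, same letters as hg38), the 250 bases before the start, chr6:131951373-131951622 on the reverse strand.
CYR61 upstream: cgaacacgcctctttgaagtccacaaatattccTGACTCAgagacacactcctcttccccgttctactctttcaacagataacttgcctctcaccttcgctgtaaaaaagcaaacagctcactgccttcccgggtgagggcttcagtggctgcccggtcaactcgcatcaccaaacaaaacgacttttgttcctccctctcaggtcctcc
CTGF upstream: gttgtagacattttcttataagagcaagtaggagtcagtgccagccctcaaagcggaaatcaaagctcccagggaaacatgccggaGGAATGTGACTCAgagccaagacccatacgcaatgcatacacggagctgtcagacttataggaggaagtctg
CTGF promoter: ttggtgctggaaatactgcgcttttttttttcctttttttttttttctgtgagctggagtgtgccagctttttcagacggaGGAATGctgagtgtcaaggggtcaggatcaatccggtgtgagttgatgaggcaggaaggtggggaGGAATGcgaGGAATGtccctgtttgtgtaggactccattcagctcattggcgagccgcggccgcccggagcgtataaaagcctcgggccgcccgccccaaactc

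Upstream of CYR61 the peak held the AP-1 site TGACTCA. Upstream of CTGF it held GGAATG directly followed by TGACTCA with 0 bases between, an arrangement found within 100 bp of the centre in 5 of 12471 peaks of replicate 1 and 4 of 27281 peaks of replicate 2. The CTGF promoter held 3 TEAD cores, and 29 of 35116 RefSeq promoters of that length (0.0826%) held at least 3. It was singled out after its letters were seen, and of the 13 promoters found for 7 of the 10 genes, another 2 (YAP1 and AMOTL2) held 1 TEAD core and 10 held none. Matches to such letters are descriptions of the sequence and do not show that a factor bound there.

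Peaks were frequent at these genes. An assigned peak was present in both replicates for 9 of the 10 genes, and AMOTL2 had a peak in replicate 2 only. Over all 20056 protein-coding genes the share was 28.6% (5736 genes). Peaks that overlapped between replicates by at least 1 bp were present for 8 genes, all but YAP1 and AMOTL2, against 25.5% of protein-coding genes (5111 genes). The genes were named with earlier results of these data known, so these counts were set beside the background without a test.

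Gene length moved with this share. Among protein-coding genes of at least 100000 bp, 47.6% had a peak in both replicates, and among those under 10000 bp, 16.5% did. YAP1, WWTR1, TEAD1 and VGLL4 belonged to the long class, and all 4 had peaks in both replicates. CYR61 and CTGF belonged to the short class, and both had peaks in both replicates. Of the 4 genes of intermediate length, TEAD3, TEAD4, LATS2 and AMOTL2, 3 did. The part of gene length in the count for the 10 genes was not tested.

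**Figure D1:**
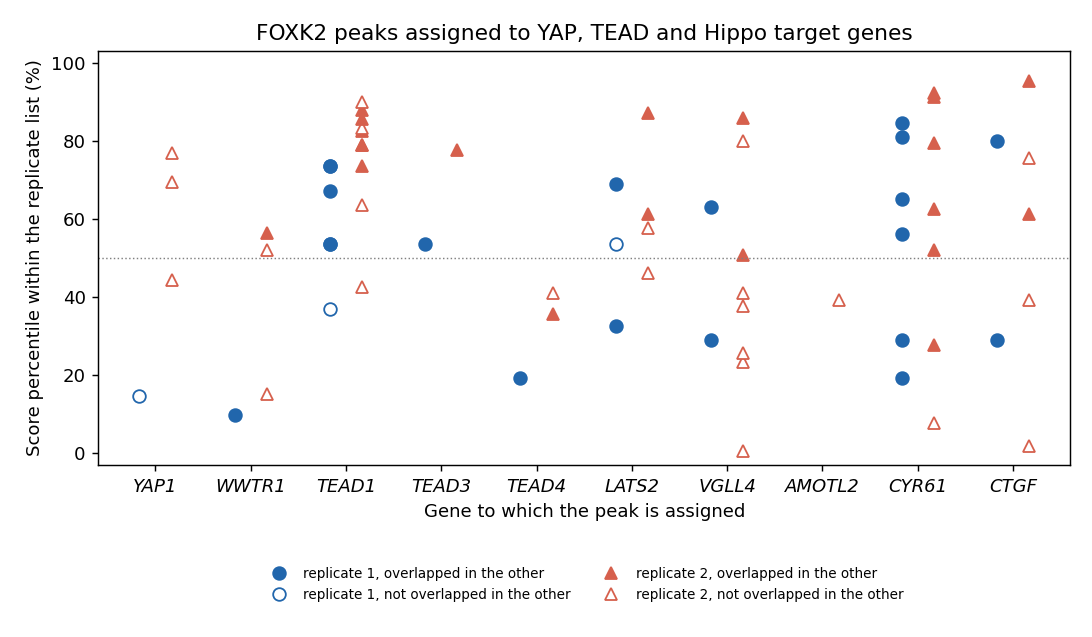
Score percentile (%, vertical axis) of every FOXK2 peak assigned to each of the 10 genes (horizontal axis), where the percentile is the share of peaks in the same list with a lower score. Circles are replicate 1 (23 peaks), triangles are replicate 2 (44 peaks), filled symbols were overlapped in the other replicate, and the dotted line is at 50. The highest symbols of CTGF and CYR61, both of replicate 2, sit at 95.3 and 92.1, and the only symbol of AMOTL2 sits at 39.4.

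The strength of each peak was read from its deposited score, which reflects the tags under the peak scaled to its own library, and was ranked within its own list. The 23 peaks of replicate 1 had scores from 4.15 to 10 (22 to 53 tags, taking 1 step of the score as 1 tag, here and below), and the 44 peaks of replicate 2 had scores from 3.57 to 21.7 (24 to 146 tags). The median score of the whole list was 5.85 in replicate 1 and 7.29 in replicate 2. The median percentile of the peaks was 53.7 in replicate 1, with a range from 9.70 to 84.7, and 61.3 in replicate 2, with a range from 0.663 to 95.3. Thus the peaks of these genes were spread over most of each list, and 0 of 23 in replicate 1 and 3 of 44 in replicate 2 lay above the 90th percentile.

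The peaks of these genes were mostly found again in the longer list. Of the 23 peaks of replicate 1, 20 were overlapped in replicate 2 (87.0%, Wilson 95% interval 67.9 to 95.5%, counting error only), against 74.9% of all peaks in that list. Of the 44 peaks of replicate 2, 20 were overlapped in replicate 1 (45.5%, 31.7 to 59.9%), against 34.2% of all peaks. The background share lay inside both intervals. Overlap followed score in the whole list: in replicate 2 it was 4.26% for peaks under the 20th percentile and 81.0% for peaks above the 80th. The members moved the same way, with 0 of 4 and 8 of 10 peaks overlapped in those bins. The overlapped peaks of the 10 genes had a median percentile of 78.2 in replicate 2, and the other 24 had a median of 43.5. Over all peaks of that list the medians were 77.6 and 33.9.

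Scores of the 20 peaks held by both replicates differed between lists as other peaks did. Over all 9343 overlapping pairs the score in replicate 2 was a median of 1.73-fold that in replicate 1 (log2 ratio 0.79, SD 0.35). Over the 20 pairs of these genes the median log2 ratio was 0.80 with an SD of 0.33. Of these 20 pairs, 13 lay within 1 SD of the median of all pairs, as did 6390 of all 9343 pairs. The centres of paired peaks were a median of 32 bp apart, against 29 bp for all pairs.

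**Figure D2:**
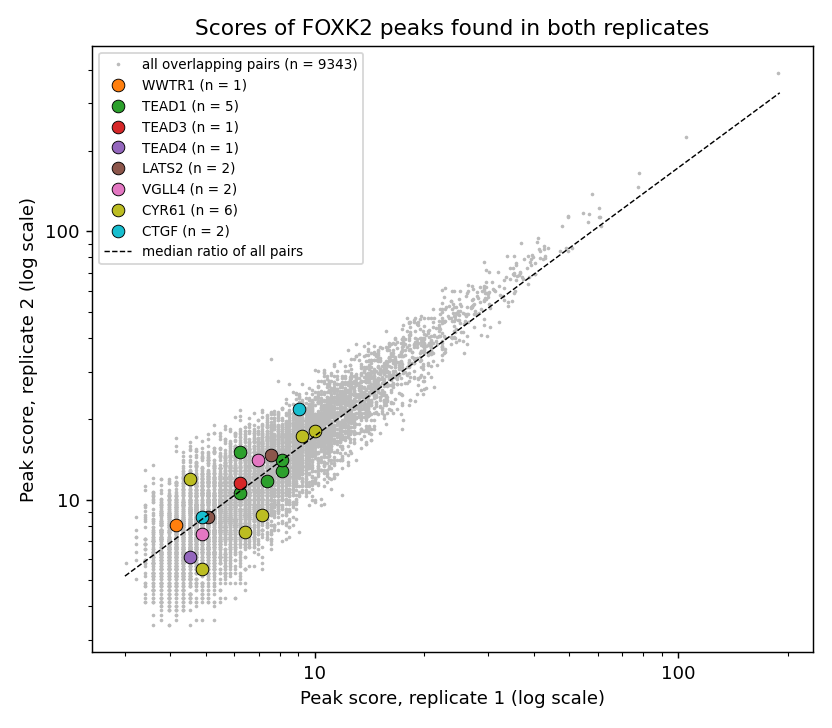
Peak scores of replicate 1 (horizontal axis, log scale) and replicate 2 (vertical axis, log scale) for peaks that overlap between the replicates. Grey points are all 9343 pairs, coloured points are the 20 pairs of 8 genes, and the dashed line is the median ratio of all pairs, 1.73-fold. The coloured points lie in the lower left of the cloud, from 4.15 to 10 in replicate 1, and the highest in replicate 2 is CTGF at 21.7.

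The shared peaks could be put in order by taking, for each gene, the pair with the best mean percentile. CYR61 (88.4) and CTGF (87.6) came first, followed by TEAD1 (79.5), LATS2 (78.0), VGLL4 (74.4), TEAD3 (65.6), WWTR1 (33.1) and TEAD4 (27.6). On a log2 scale of score against the median of all overlapping peaks in each replicate, the SE of a difference between means of 2 replicates was 0.25, from the spread of all pairs. CYR61 and CTGF differed by less than that (-0.06, with CTGF the higher on this scale), as did TEAD1 and LATS2 (0.02), LATS2 and VGLL4 (0.09), VGLL4 and TEAD3 (0.23), and WWTR1 and TEAD4 (0.14). The steps from CTGF to TEAD1 (0.40) and from TEAD3 to WWTR1 (0.55) were larger than 1 SE. The order takes the best of unequal numbers of shared pairs, 6 for CYR61, 5 for TEAD1, 2 each for CTGF, LATS2 and VGLL4, and 1 each for TEAD3, WWTR1 and TEAD4. The other pair of CTGF, the one nearer to the gene, had a mean percentile of 45.2, and the pairs of CYR61 ran down to 28.4. Most neighbours in the order were not separated, and the first and last places depended on the processing. In lists of equal length CTGF (84.8) came before CYR61 (83.7), and WWTR1 fell to 7.26. TEAD4 had no shared peak in those lists or when at least 50% of each peak had to overlap.

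**Figure D3:**
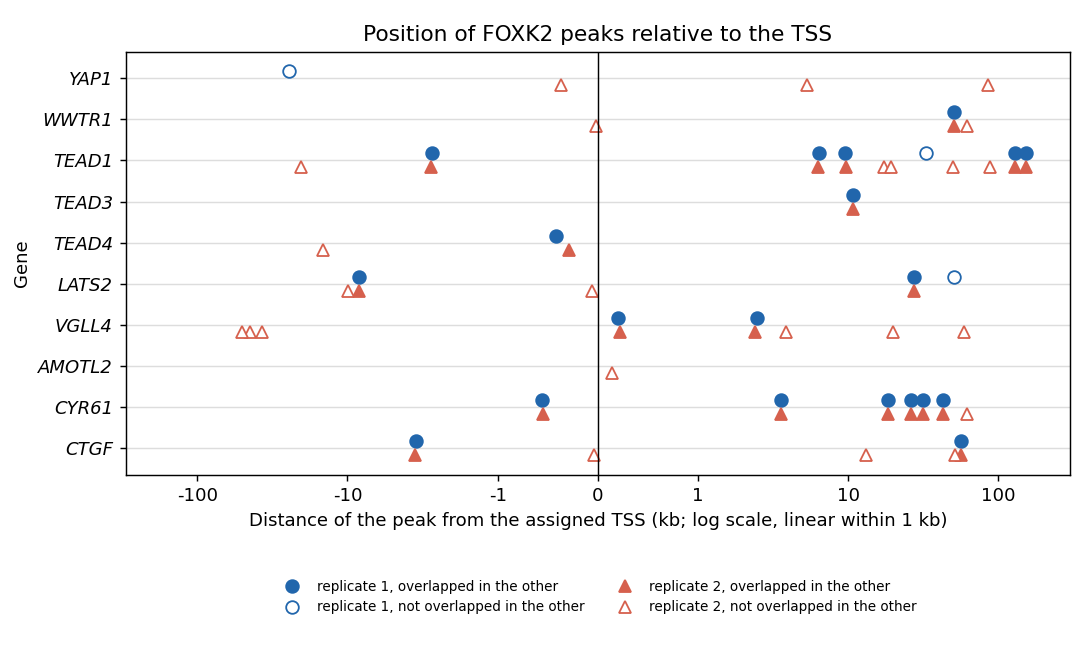
Distance of each peak's centre from the assigned TSS in kb (horizontal axis, log scale, linear within 1 kb) for the 10 genes (vertical axis). Circles are replicate 1, triangles are replicate 2, and filled symbols were overlapped in the other replicate. CYR61 has 6 paired positions from upstream of the start to 42578 bp downstream, and the promoter peaks of YAP1, WWTR1, LATS2, AMOTL2 and CTGF are open triangles.

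YAP1, at chr11:102110447-102233424 on the forward strand, encodes the coactivator that LATS kinases restrain, and its peaks did not coincide between replicates. Replicate 1 held 1 peak, 24443 bp upstream of the TSS, with a score of 4.34 (percentile 14.7) and a TGTTTAC core. Replicate 2 held 3 others: at the promoter, 364 bp upstream of the TSS HOMER used, with a score of 11.3 (76.9) and an AP-1 site, in intron 2, 5287 bp downstream, with a score of 9.82 (69.4) and a TGTTTAC core, and in intron 4, 85580 bp downstream, with a score of 6.84 (44.4). The nearest replicate 1 peak to that promoter peak was 25825 bp away. Both lists therefore assigned YAP1 a peak, but no position was held by both.

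WWTR1, at chr3:149517235-149736714 on the reverse strand, encodes TAZ, the paralogue of YAP. Its single shared peak in intron 3, 50246 bp downstream of the TSS, scored 4.15 in replicate 1 (percentile 9.70) and 8.03 in replicate 2 (56.5). Replicate 2 also held a promoter peak 23 bp upstream of the TSS, with a score of 7.58 (52.1), and a second intron 3 peak with a score of 4.61 (15.1). The intronic peak was among the weakest in replicate 1 and near the middle of the list in replicate 2.

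The WWTR1 promoter region shows how assignment by nearest TSS shaped the list. Replicate 1 had a peak at chr3:149658261-149658471 with a score of 5.47 (percentile 40.9), which HOMER assigned to the antisense gene WWTR1-AS1. It lay 85 bp from the replicate 2 promoter peak at chr3:149657920-149658176 and 127 bp from a second replicate 2 peak of WWTR1-AS1 at chr3:149658598-149658854, with a score of 6.84 (44.4). Each replicate thus had peaks in this promoter region, and none of them overlapped between replicates.

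TEAD1, at chr11:12674421-12944737 on the forward strand, encodes a TEAD factor and carried more peaks than any other of the 10 genes in replicate 2. It had 6 peaks in replicate 1 and 10 in replicate 2, of which 5 in each overlapped. Among all genes with any peak, coding or not, 99.1% had fewer in replicate 1 and 99.4% had fewer in replicate 2. The median over protein-coding genes with a peak was 1 peak in each list.

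The TEAD1 peaks ran from upstream of the gene to deep in intron 3. The shared peak 2718 bp upstream scored 6.23 in replicate 1 and 15 in replicate 2, where a TEAD core lay within 100 bp of its centre, and that in intron 2, 6348 bp downstream, scored 8.11 and 12.8. The next in intron 2, 9583 bp downstream, scored 7.36 and 11.7, and those in intron 3, 128443 and 153537 bp downstream, scored 8.11 and 14, and 6.23 and 10.6. TGTTTAC lay in 2 of the 5, at 6348 and 128443 bp, in both replicates. The 5 shared peaks all lay between percentiles 53.7 and 87.8.

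The highest TEAD1 score was nonetheless in a peak that only replicate 2 held, in intron 2, 19327 bp downstream, with a score of 16.4 (percentile 89.9) and an AP-1 site. Replicate 2 alone also held peaks 17340 bp (11.7), 49577 bp (13.1, with 2 TEAD cores) and 88103 bp downstream (8.92) in intron 2, and 20543 bp upstream (6.69, with a TEAD core). Replicate 1 alone held a peak 32745 bp downstream, with a score of 5.28 and a TGTTTAC core. A high score in replicate 2 therefore did not always go with a peak in replicate 1.

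TEAD3, at chr6:35473597-35497079 on the reverse strand, encodes another TEAD factor and had a single peak, shared, in intron 2, 10776 bp downstream of the TSS. It scored 6.23 in replicate 1 (percentile 53.7) and 11.5 in replicate 2 (77.6), and the AP-1 site within 100 bp of its centre was counted in replicate 2 only. TEAD4, at chr12:2959330-3040676 on the forward strand, had its shared peak at the promoter, 415 bp upstream in replicate 1 (score 4.53, percentile 19.4) and 286 bp upstream in replicate 2 (6.1, 35.7). The common stretch was 104 bp with centres 129 bp apart, and the pair was not kept in lists of equal length or at an overlap of 50% of each peak. A TEAD core lay within 100 bp of its centre in replicate 1 only, outside the common stretch. Replicate 2 held a second TEAD4 peak 14463 bp upstream, with a score of 6.54 (41.1) and a TEAD core. The 3 TEAD genes thus differed in layout, with many peaks in TEAD1, a single intronic peak in TEAD3 and weak peaks at and before the start in TEAD4.

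LATS2, at chr13:20973036-21061586 on the reverse strand, encodes a kinase that phosphorylates YAP and TAZ. Its intron 2 peak, 27514 bp downstream of the TSS, had a score of 7.55 in replicate 1 (percentile 69.0) and 14.7 in replicate 2 (87.1), at the same distance in both. A second shared peak 8371 bp upstream scored 5.09 (32.7) and 8.63 (61.3). Both positions were thus held by both lists, the intronic at the higher score in each.

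The remaining LATS2 peaks were in a single list each. Replicate 2 held a promoter peak 54 bp upstream, with a score of 8.18 (percentile 57.7) and a TEAD core, and a peak 9894 bp upstream, with a score of 6.99 (46.1) and a TGTTTAC core. Replicate 1 held a peak in intron 2, 50805 bp downstream, with a score of 6.23 (53.7) and a TGTTTAC core. At LATS2 the core TGTTTAC thus lay only in peaks that a single list held, and in neither shared peak.

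VGLL4, at chr3:11556069-11771350 on the reverse strand, encodes a cofactor that competes with YAP for TEAD. Its best shared peak lay in a 5′ UTR, 202 bp downstream of a TSS, with a score of 6.98 in replicate 1 (percentile 62.9) and 14.1 in replicate 2 (85.8). That peak held none of the 3 motifs in either replicate. The other shared peak, in intron 2, 2466 bp downstream of the TSS assigned, scored 4.9 (29.0) and 7.44 (50.7) and held TGTTTAC. Both replicate 1 peaks were thus found in replicate 2.

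Replicate 2 added 6 VGLL4 peaks. The strongest was in intron 2, 3876 bp from its TSS, with a score of 12 (81 tags) and a TEAD core. Another 2 peaks, with scores of 6.25 (with an AP-1 site) and 5.35, lay in intron 17 of the neighbouring gene ATG7 by HOMER's annotation. The other 3 had scores of 6.54, 3.57 and 5.21 (the last with an AP-1 site). They were called intergenic by HOMER, although they lay inside the VGLL4 body of GENCODE. VGLL4 had more peaks in replicate 2 than 98.5% of all genes with a peak, coding or not, and in replicate 1 more than 69.6%.

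AMOTL2, at chr3:134355347-134375479 on the reverse strand, encodes an angiomotin that binds YAP and holds it in the cytoplasm. It had 1 assigned peak, in replicate 2, at the promoter, 139 bp downstream of the TSS, with a score of 6.39 (percentile 39.4) and none of the 3 motifs. Inside the AMOTL2 body, however, both replicates held a peak that HOMER assigned to the microRNA gene MIR6827, with a score of 6.04 in replicate 1 (50.7) and 9.52 in replicate 2 (67.5). By gene body rather than nearest TSS, AMOTL2 therefore had a peak in both replicates that overlapped.

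CYR61, at chr1:85580761-85584589 on the forward strand and named CCN1 in current annotation, encodes a secreted matricellular protein and is a widely used readout of YAP and TEAD activity. All 6 of its peaks in replicate 1 were overlapped in replicate 2, which held 7. The promoter peak, 558 bp upstream of the TSS, scored 9.24 in replicate 1 (percentile 81.1, 49 tags) and 17.3 in replicate 2 (91.1, 116 tags), and held an AP-1 site. The peak at the end of the gene, 3556 bp downstream, scored 10 (84.7, 53 tags) and 18 (92.1, 121 tags) and held both TGTTTAC and a TEAD core. All 4 values lay above the 80th percentile of their list.

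The other CYR61 peaks lay downstream of the gene in intergenic sequence. Those 18448, 26358, 31344 and 42578 bp downstream scored 4.9, 7.17, 6.41 and 4.53 in replicate 1, and in the same order 5.5, 8.77, 7.58 and 11.9 in replicate 2. An AP-1 site lay in the first and a TEAD core in the third. Replicate 2 alone held a peak 61489 bp downstream, with a score of 4.16 (percentile 7.79) and a TGTTTAC core. CYR61 had more peaks than 99.1% of all genes with a peak, coding or not, in replicate 1 and 97.6% in replicate 2. All were assigned by nearest TSS, and 1 peak in each replicate lay inside the gene body.

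CTGF, at chr6:131948176-131951372 on the reverse strand and named CCN2 in current annotation, encodes a matricellular protein of the same family and is likewise a common YAP target. Its strongest peak lay 56123 bp downstream of the CTGF start, at the end of the gene ENPP1, and held TGTTTAC. It scored 9.05 in replicate 1 (percentile 79.9, 48 tags) and 21.7 in replicate 2 (95.3, 146 tags), the highest score of all peaks of the 10 genes in replicate 2. The name CTGF thus rests, for its highest peak, on the nearest TSS and not on position within the gene.

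The peak nearest to CTGF that both replicates held lay 3479 bp upstream, with a score of 4.9 in replicate 1 (percentile 29.0) and 8.63 in replicate 2 (61.3), and is the stretch with GGAATG directly before TGACTCA. Replicate 2 alone held a promoter peak 43 bp upstream, with a score of 6.39 (39.4), whose window held 2 TEAD cores. The promoter printed above, with 3 such cores, was overlapped by that peak and by no replicate 1 peak. Replicate 2 alone also held peaks 13076 bp downstream (score 11, percentile 75.6, with TGTTTAC) and 50991 bp downstream (3.72, 1.76). Of the 35116 promoters in the RefSeq table, which can hold several for a gene, 11.9% held at least 1 TEAD core, 4.20% an AP-1 site and 2.98% TGTTTAC.

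The peaks lay at all distances from the TSS and in several annotation classes. Within 10000 bp of the assigned TSS lay 10 of 23 peaks in replicate 1 (43.5%, against 42.8% of all peaks) and 18 of 44 in replicate 2 (40.9%, against 37.9%). HOMER called 2 of 23 (8.70%) and 7 of 44 (15.9%) promoter peaks, against 21.7% and 18.0% of all peaks. Introns held 10 and 18 of the peaks (43.5% and 40.9%, against 39.0% and 40.6% of all peaks). Intergenic sequence held 8 and 16 (34.8% and 36.4%, against 34.1% and 36.5%). Gene ends, called TTS by HOMER, held 2 in each replicate (8.70% and 4.55%, against 1.29% and 1.27%), and both were the best peaks of CYR61 and CTGF. The share of all peaks lay below the interval in replicate 1 (2.42 to 26.8%) and inside it in replicate 2 (1.26 to 15.1%), and both intervals rest on these 2 positions. The focus ratio, the fraction of tags on the expected side of the centre, had a median of 0.727 in replicate 1 and 0.757 in replicate 2, against 0.758 and 0.755 for all peaks.

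The share of peaks with a forkhead core depended on how the core was written. TGTTTAC lay within 100 bp of the centre in 8 of 23 peaks of replicate 1 (34.8%, Wilson 95% interval 18.8 to 55.1%), against 30.5% of all peaks, and in 9 of 44 peaks of replicate 2 (20.5%, 11.2 to 34.5%), against 28.1%. In control windows 2000 bp to each side the share was 2.17% in replicate 1 and 1.14% in replicate 2. In the control windows of all peaks it was 2.87% in each replicate. Each share of the peaks of these genes was above that of the control windows and its interval held the share of all peaks. Within 50 bp of the centre TGTTTAC lay in 7 of 23 peaks (30.4%, against 24.8%) and in 4 of 44 (9.09%, interval 3.59 to 21.2%, against 23.4%), so in replicate 2 the share of all peaks then lay above the interval. The looser core RYAAAYA, searched within 100 bp, lay in 16 of 23 peaks (69.6%, against 57.8%) and in 29 of 44 (65.9%, against 56.8%). It was also far more frequent than TGTTTAC in control windows, with 23.9% and 27.3% for these peaks and 30.0% and 30.4% for all peaks. Of the 20 shared peaks, 5 held TGTTTAC in each replicate (25%), against 34.3% and 34.9% of all shared peaks. They belonged to TEAD1 (2), VGLL4, CYR61 and CTGF.

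TEAD and AP-1 letters were present at about the share of other peaks. The AP-1 site lay in 3 of 23 peaks of replicate 1 (13.0%, against 16.3% of all peaks) and in 8 of 44 of replicate 2 (18.2%, against 16.5%). The TEAD core lay in 4 of 23 (17.4%, against 16.6%) and in 10 of 44 (22.7%, against 16.2%), and in 6.52% and 6.82% of the control windows of these peaks. In the control windows of all peaks the share was higher, 10.3% in each replicate. Of the 23 and 44 peaks, 10 (43.5%) and 19 (43.2%) held none of the 3 motifs, against 48.4% and 49.6% of all peaks. The share of all peaks lay inside each interval, which was 4.54 to 32.1% and 9.51 to 32.0% for AP-1 and 6.98 to 37.1% and 12.8 to 37.0% for TEAD in replicates 1 and 2.

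A wider list of 54 other Hippo genes placed the 10 genes in their pathway, and all 54 matched a gene identifier. A peak in both replicates was assigned to 25 (46.3%), with overlapping peaks for 22 (40.7%, against 25.5% of protein-coding genes). Another 16 had a peak in replicate 2 only, 1 (FRMD6) in replicate 1 only, and 12 in neither. For genes in a single list or in neither, the share over all protein-coding genes was not computed, here and below. Replicate 1 held a peak for 26 (48.1%), against 31.3% of protein-coding genes. The count depended on distance. Within 10000 bp of the TSS it was 8 of 54 genes (14.8%), against 16.9% of protein-coding genes, and by replicate 2 alone (without replicate 1) it was 41 (75.9%), against 51.7%. The share of 46.3% is read beside 28.6% for all protein-coding genes, and the median length of the 54 genes was 65338.5 bp.

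Among 20 genes of the kinase cascade and its scaffolds, 9 had a peak in both replicates (45.0%) and 4 had none. That share is read beside 28.6% for all protein-coding genes and 47.6% for those of at least 100000 bp. The median length of the 20 genes was 121366 bp. The highest of the 9 was STK4, which encodes the MST1 kinase. Its intronic peak scored 11.1 in replicate 1 and 20.5 in replicate 2 (mean percentile 91.5). TNIK, a kinase of the MAP4K group, had an intronic peak with TGTTTAC and scores of 9.62 and 18.1 (87.6). SAV1, the scaffold of the MST kinases, had a promoter peak with scores of 9.81 and 16.4 (86.9). These exceeded the mean percentile of LATS2 (78.0), the kinase member of the 10 genes.

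Among 12 regulators at junctions, in polarity or of the angiomotin family, 4 had no peak. Another 2 had a peak in both replicates (16.7%, against 28.6% of all protein-coding genes). They were AMOTL1, the paralogue of AMOTL2, with an intronic peak of scores 11.9 and 18 (91.2), and FAT1, an atypical cadherin, with an exonic peak of scores 6.98 and 11 (69.3), and both peaks held TGTTTAC. Among 4 further TEAD and VGLL genes, 1 (VGLL3) had a peak in both replicates (25%, against 28.6% of all protein-coding genes), and 2 had none. The VGLL3 peaks did not overlap between replicates, while 25.5% of all protein-coding genes had peaks that did.

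Among 18 other genes of a YAP and TAZ target signature, 13 had a peak in both replicates (72.2%), 11 of them overlapping, and 2 had none. The share over all protein-coding genes was 28.6%, or 25.5% for overlapping peaks, and the median length of the 18 genes was 45024.5 bp. IGFBP3, which encodes a binding protein of insulin-like growth factors, had the highest-ranked shared peak of the wider list, at -57133 bp from its start, with scores of 21.1 and 46 (98.7). ASAP1, a GTPase-activating protein, had an intergenic peak at -160868 bp from its start with scores of 16.2 and 31.2 (97.1). DOCK5, a guanine nucleotide exchange factor, had an intronic peak with TGTTTAC and scores of 9.81 and 15.6 (86.3). The peaks of IGFBP3 and ASAP1 ranked above the best shared peaks of CYR61 and CTGF in both lists.

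**Figure D4:**
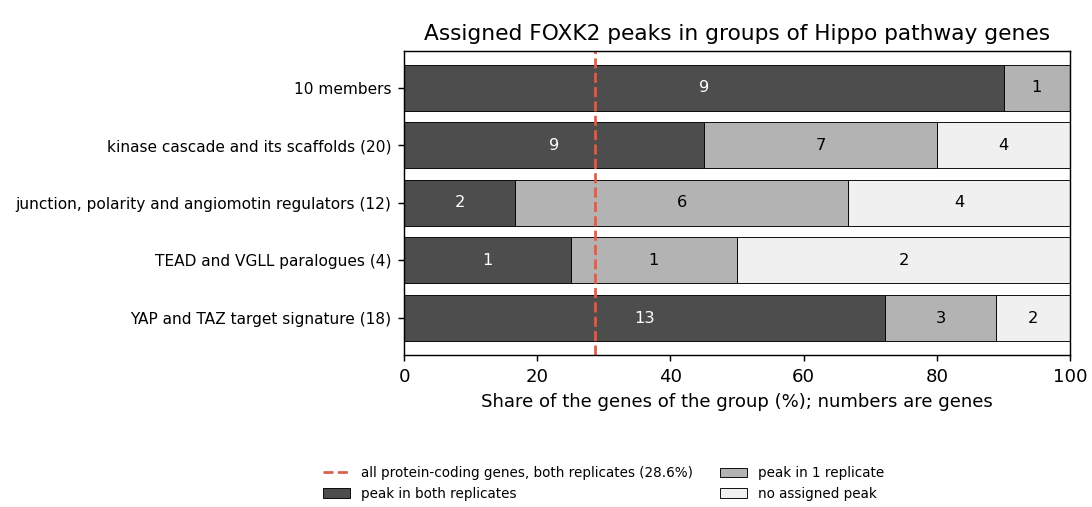
Share of genes (%, horizontal axis) with an assigned FOXK2 peak in both replicates (dark), in 1 replicate (mid grey) or in neither (light) for the 10 genes and for 4 groups of the wider list (vertical axis), with the number of genes written in each bar. The dashed line is the share of all protein-coding genes with a peak in both replicates, 28.6%. The target signature (13 of 18), the kinase group (9 of 20) and the 10 genes (9 of 10) lie to the right of the line. The junction group (2 of 12) and the TEAD and VGLL group (1 of 4) lie to its left.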

How the data were processed

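FOXK2 ChIP-seq peaks of OVCAR5 cells were analysed from the lists of 2 biological replicates, which are 2 of the 4 samples of the series, and the input libraries were not analysed here. The submitters' processing notes and the methods name Bowtie2 2.2.6 with hg38 and HOMER 4.10. The authors deposited for each peak a score, scaled to its own library, a focus ratio, which is a fraction, and the signed distance to the nearest TSS with its gene. Lists were used as deposited. Peaks spanned 210 and 256 bp. Scores under 10 were whole multiples of a step (0.189 and 0.149, tolerance 0.0051), higher scores are rounded too coarsely to check, and if 1 step is 1 tag, which the sources used here do not state, the weakest peaks held 16 and 21 tags.

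Peaks were taken by the gene names given in the lists, and counted as shared at an overlap of at least 1 bp. Scores were compared as percentiles of their own list or, in log2, against the median of overlapping peaks. Motifs were searched within 100 bp of the centre on both strands and in control windows 2000 bp away. Gene bodies came from GENCODE release 44, and protein-coding genes, their lengths and promoters from RefSeq (GRCh38.p14), whose promoter table was matched for YAP1, WWTR1, TEAD3, LATS2, VGLL4, AMOTL2 and CTGF. Intervals are Wilson 95% intervals and cover counting error only.

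The genes, the wider list of 54 and the measures were chosen with earlier results of these data known. All 10 genes are named with every peak. From the wider list, the 3 genes of each role with the best mean percentile of a shared peak are named, while FRMD6 and VGLL3 were named after their values were seen, as were the additional sequences at CYR61 and CTGF and the counts of adjacent and repeated TEAD cores. No test was made, since all lists analysed were of 1 condition and held no group to compare. Alternatives were limits on distance to the TSS, lists cut to equal length or to their higher scores, assignment by gene body, stricter overlap, other motif windows, another core and leaving out each replicate. The overlap, motif and score-step routines were tested on simulated data. Python 3.11.15, numpy 2.4.6, pandas 2.3.3, scipy 1.17.1, pysam 0.24.0, matplotlib 3.10.9 and samtools 1.23.1 were used.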

Additional observations from a re-analysis of the deposited data

Results flagged for a closer look

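Peaks inside the bodies of the 10 genes that HOMER assigned to other genes were not counted among their peaks, and were found 3 times in replicate 1 and 6 times in replicate 2. The strongest lay in TEAD1 and was assigned to LINC00958, at chr11:12864912-12865122 in replicate 1 with a score of 9.81 (percentile 83.8) and at chr11:12864889-12865145 in replicate 2 with a score of 21 (94.9). It overlapped between replicates and ranked above the best shared peak that carried the name TEAD1 (73.5 and 85.5). Another 2 TEAD1 body peaks of LINC00958 were in replicate 2 only, with scores of 12.9 and 5.06. The others were the MIR6827 peaks in AMOTL2 and the WWTR1-AS1 peaks in WWTR1 given above and, in replicate 2, a peak of TM4SF4 with a score of 6.54. No input signal was used here, so these are values of the deposited lists only.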

How the results depend on the processing

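No paired analysis was possible because each replicate number joins a FOXK2 library to an input library that was not analysed here. Over 30 settings of the main results, 24 stayed within 1.5 times the count, within the interval of the share or within the spread between replicates, and 6 moved. A background under the same setting was computed for the gene counts, the motif shares and 1 alternative overlap setting only, and 2 of these results turned against it. The wider list was above the share of all protein-coding genes in the main setting and below it within 10000 bp of the TSS (14.8 against 16.9%). Forkhead cores in replicate 2 were below the share of all peaks for TGTTTAC (20.5 against 28.1%) and above it for RYAAAYA. The number of the 10 genes with a peak in both replicates was 6 within 10000 bp of the TSS (16.9% of all protein-coding genes), 6 in the higher-scoring part of each list (17.1%) and 10 when assigned by gene body (37.5%), and 9 to 10 with each replicate left out (31.3 to 51.7%). The wider list fell from 25 (46.3%) to 8 genes within 10000 bp of the TSS, and with each replicate left out it was 26 to 41, the higher without replicate 1. In lists of equal length, 16 of 25 replicate 2 peaks were overlapped (64.0%, against 7480 of all 12471). TGTTTAC within 50 bp was in 4 of 44 replicate 2 peaks (9.09%, against 23.4%), and the looser core RYAAAYA was in 69.6% of replicate 1 and 65.9% of replicate 2 peaks (57.8 and 56.8% of all peaks). For single genes and control windows 14 of 16 values stayed within the spread between replicates or the interval. In lists of equal length the mean percentile of WWTR1 was 7.26 against 33.1, inside its wide spread, and that of TEAD1 was 70.9 against 79.5, outside its own, and the control share of replicate 2 was 0% at 10000 bp. TEAD4 had no shared peak in lists of equal length or when each peak had to share at least 50% of its length.

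The scores rest on few tags, the number of peaks differs between the lists, and 2 replicates give only a weak estimate of the spread for a single gene. Overlap measures and the order of genes had no value with a replicate left out, since both need both lists. The cause of the moved values was not tested. A peak is assigned to the nearest TSS, which need not be the gene it acts on, and neither binding in other conditions nor RNA was measured here.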
